A study of Mus musculus with 10 samples.

Results

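Glioma-propagating cells derived from primary tumours (PT) were compared with tumorigenic astrocytes carrying a *Zfp423* expression vector (AstroEGFR_Zfp423, hereafter Zfp423 astrocytes) in 7 of the 10 mouse RNA-seq libraries of the series. Features were kept where the mean level over these 7 libraries was at least 1 FPKM (fragments per kilobase of transcript, scaled to the number of fragments of the library). Symbols of small non-coding RNA and of replication-dependent histones were dropped. This left 12230 of the 23230 features of the table, and all comparisons below rest on log2(FPKM + 1).

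Both groups descend from C57BL/6 cortical astrocytes of postnatal day 5 that lack *Ink4a/Arf* (p16/p19) and express human EGFRvIII, a constitutively active receptor variant, from a retroviral vector. *Cdkn2a*, the gene of this locus, was at 3.96 to 29.1 FPKM in the 6 astrocyte libraries, at 7.34 to 9.01 FPKM in PT1, PT2 and PT4 and at 129.7 FPKM in PT3, and a gene total cannot show whether the deleted part is missing. The 3 libraries of Zfp423 astrocytes (numbered 1, 2 and 3) are from such cultures after a further infection with a *Zfp423* vector, which the sample annotation calls lentiviral and the study's methods call retroviral. The 4 PT libraries (PT1 to PT4) are from cells cultured out of tumours that formed after the astrocytes, without the *Zfp423* vector, were injected into the brains of CD1 nude mice. The study places PT1 and PT4 in the lineage of astrocyte batch 1, PT2 in that of batch 2 and PT3 in that of batch 3. The 3 parental libraries (AstroEGFR) are given beside them for reference. Astrocytes were grown in medium with fetal bovine serum, and PT cells in serum-free medium with EGF and FGF2 on laminin. Thus the *Zfp423* vector, the passage through a tumour and the culture medium cannot be told apart in this comparison. Each tumour line is a separate culture, but PT1 and PT4 share their parent cells, and p-values measure the spread between these libraries.

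*Zfp423* encodes a zinc-finger transcription factor that binds SMAD proteins downstream of bone morphogenetic protein (BMP) receptors and the EBF factors, and takes part in neural and adipocyte differentiation. Astrocytes are the glia that support neurons and synapses. Cortical astrocyte cultures can also hold microglia, meningeal fibroblasts and oligodendrocyte precursors. Cells kept in serum on plastic typically build actin stress fibres and secrete collagen, while serum-free medium with EGF and FGF2 is the usual condition for neural stem cells.

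Several libraries stood apart from their group. Over the kept features, Zfp423 astrocytes 3 correlated with Zfp423 astrocytes 1 and 2 at Pearson's r of 0.791 and 0.748, with the PT libraries at 0.818 to 0.878 and with the parental library of batch 2 at 0.907. Its number in the title is 3, yet its r with the parental library of batch 3 was 0.812. The Y-linked genes *Ddx3y*, *Eif2s3y*, *Kdm5d* and *Uty* were at 3.65 FPKM or more in every library of batches 1 and 3, Zfp423 astrocytes 3 included, and at most at 0.114 FPKM in every library of batch 2, where *Xist* was at 20.4 to 34.9 FPKM. PT1 and PT4 were the most alike of the PT libraries (r = 0.957), and the other pairs of PT libraries lay between 0.797 and 0.871. PT3 was the shallowest of the 7 libraries by the number of features above 0 (14075 against 15794 to 16988). Small non-coding RNA and histone features, which were left out, took 35.4% to 54.8% of the summed FPKM in Zfp423 astrocytes against 0.462% to 34.2% in PT. The deposited values give no read counts, so the depth behind each value is unknown.

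The markers of other cell types also differed within the group. The 16 microglia and macrophage markers summed to 2389 FPKM in Zfp423 astrocytes 1 and 1590 FPKM in Zfp423 astrocytes 2, but to 1.77 FPKM in Zfp423 astrocytes 3, 6.30 to 42.8 FPKM in PT and 9.92 to 43.5 FPKM in the parental astrocytes. Each of the 16 markers was higher in Zfp423 astrocytes 1 and 2 than in all 8 other libraries. *C1qb*, a subunit of complement C1q that microglia secrete, was at 329 and 217 FPKM in those libraries, was listed at 0 in Zfp423 astrocytes 3 and stayed at or below 0.136 FPKM in PT. *Csf1r*, the receptor that macrophages need to survive, was at 202, 108 and 0.0686 FPKM in Zfp423 astrocytes 1, 2 and 3 and at 0.0213 to 0.158 FPKM in PT. *Fcer1g*, an Fc receptor subunit, was at 154, 136 and 0.122 FPKM, and at most 0.278 FPKM in PT. Thus the macrophage transcripts were high in 2 of the 3 Zfp423 cultures and summed to less than in any PT library in the other. A listed 0 need not mean absence in this table: *Gapdh*, which every cell uses, was between 0.0106 and 0.0206 FPKM in PT1, PT4 and the parental library of batch 1, and *Hmgcs1*, a sterol synthesis gene, is listed at 0 in all 10 libraries. In bulk RNA, fewer cells of a type and less RNA per cell cannot be told apart.

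Fibroblast and meningeal markers (16 in all) followed a similar division, at 5045, 7352 and 414 FPKM in Zfp423 astrocytes 1, 2 and 3, at 91.8 to 776 FPKM in PT and at 764 to 6485 FPKM in the parental astrocytes. The 18 astrocyte markers summed to 1815, 101 and 1587 FPKM in Zfp423 astrocytes 1, 2 and 3 and to 634 to 2306 FPKM in PT. The library labelled AstroEGFR_2_Zfp423 thus had little of the astrocyte set: *Gfap*, the intermediate filament of astrocytes, was at 1.11 FPKM and *Aqp4*, their water channel, at 0.0266 FPKM. Oligodendrocyte lineage markers (16) summed to 1450 and 1885 FPKM in PT1 and PT4 against 66.6 to 250 FPKM in Zfp423 astrocytes, and PT2 (192.7 FPKM) and PT3 (158.2 FPKM) lay inside that range. The part of these other cell types in the differences below was not tested.

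**Figure D1:**
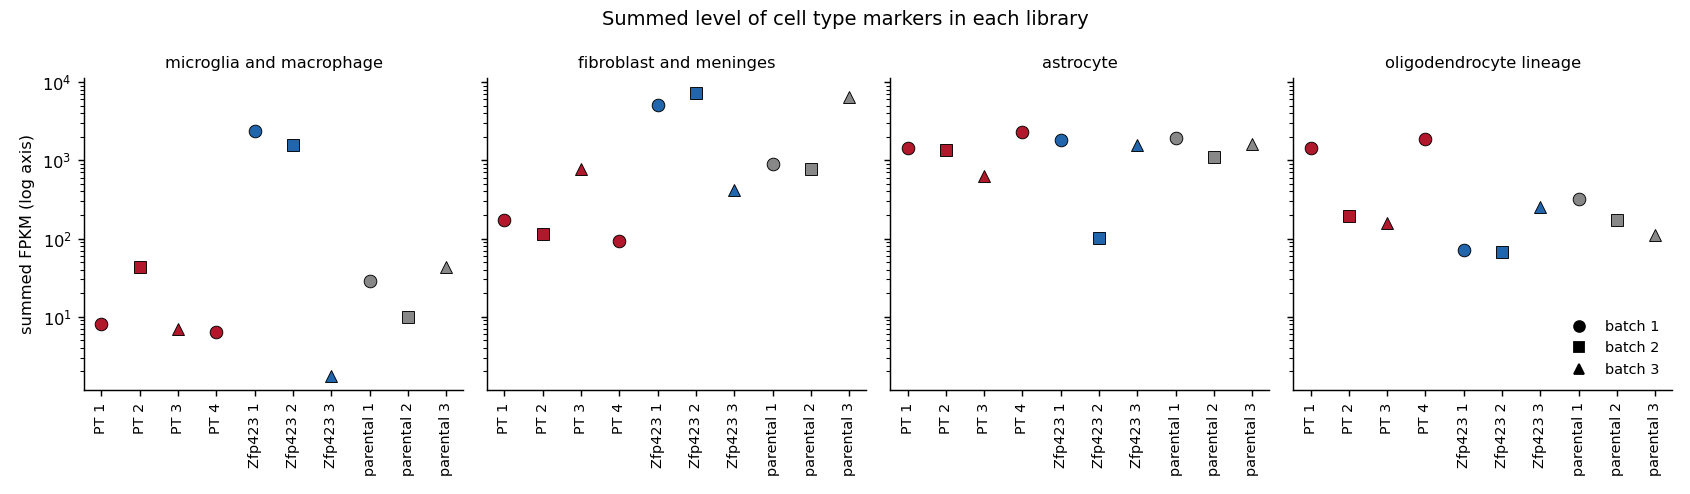
Summed FPKM (log axis) of the microglia and macrophage, fibroblast and meningeal, astrocyte and oligodendrocyte lineage markers in each library; colours give the group (red PT, blue Zfp423 astrocytes, grey parental) and symbols the astrocyte batch. Macrophage markers reach 2389 and 1590 FPKM in Zfp423 astrocytes 1 and 2 and 1.77 FPKM in Zfp423 astrocytes 3.

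*Zfp423* itself was at 15.7, 9.73 and 105 FPKM in Zfp423 astrocytes 1, 2 and 3, at 0.837, 2.78, 0.641 and 1.77 FPKM across PT1 to PT4, and between 3.25 and 4.30 FPKM in the parental astrocytes. The groups did not overlap, and Zfp423 astrocytes 3 had by far the most transcript. The difference was −3.49 ± 0.76 (log2 fold change, PT minus Zfp423 astrocytes, ± SE; n = 4 and 3). An exact permutation test over the 35 assignments of the libraries gave p = 0.0286 (two-sided), the smallest p these assignments allow. This test ignores the pairing by batch and the shared parent cells of PT1 and PT4. The vector supplies the gene, so the direction was set by the design. Over all features, limma gave an adjusted p of 0.180. Against the parental astrocytes of the same batch, *Zfp423* was 2.52 ± 0.75 higher on the log2 scale with the vector, with an adjusted p of 0.619 by limma. The files give a gene total, so transcript of the vector and of the endogenous gene are not separated.

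Over the 12230 features, limma called 2 (0.0164%) at an adjusted p below 0.05, and both were higher in PT. Without adjustment, 915 features (7.48%) were higher and 1006 (8.23%) lower in PT at p below 0.05. In 898 features (7.34%) every PT library was above every Zfp423 library, and in 849 (6.94%) every PT library was below. The median log2 fold change over all features was −0.02.

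*Cacng5*, which encodes an auxiliary subunit of AMPA-type glutamate receptors, was at 75.8, 47.9, 77.3 and 93.5 FPKM across PT1 to PT4. It was at 0.836 and 1.82 FPKM in Zfp423 astrocytes 1 and 3 and listed at 0 in Zfp423 astrocytes 2, and at 0.105 to 0.298 FPKM in the parental cells. All PT libraries thus stood far above all astrocyte libraries (log2 fold change 5.39 ± 0.40, limma adjusted p = 0.0134). *Efs*, an adaptor protein bound by SRC family kinases, was at 23.4, 9.35, 21.2 and 21.5 FPKM across PT1 to PT4 but at 0.0379, 0.0055 and 0.230 FPKM in Zfp423 astrocytes 1 to 3 (4.12 ± 0.36, limma adjusted p = 0.0259). Both genes had a mean below 1 FPKM in Zfp423 astrocytes and passed the minimum through PT alone, so only a higher level in PT could have brought them into the comparison. PT2 was the lowest of the PT libraries for both genes. The parental astrocytes had at most 0.991 FPKM of *Efs*. Neither call held without some of the libraries. The limma adjusted p of *Cacng5* rose above the threshold without PT1 (0.0995), PT4 (0.108) or Zfp423 astrocytes 1 (0.0954), and that of *Efs* without PT1 (0.142), PT3 (0.0607), PT4 (0.234) or Zfp423 astrocytes 1 (0.148) or 2 (0.217).

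**Figure D2:**
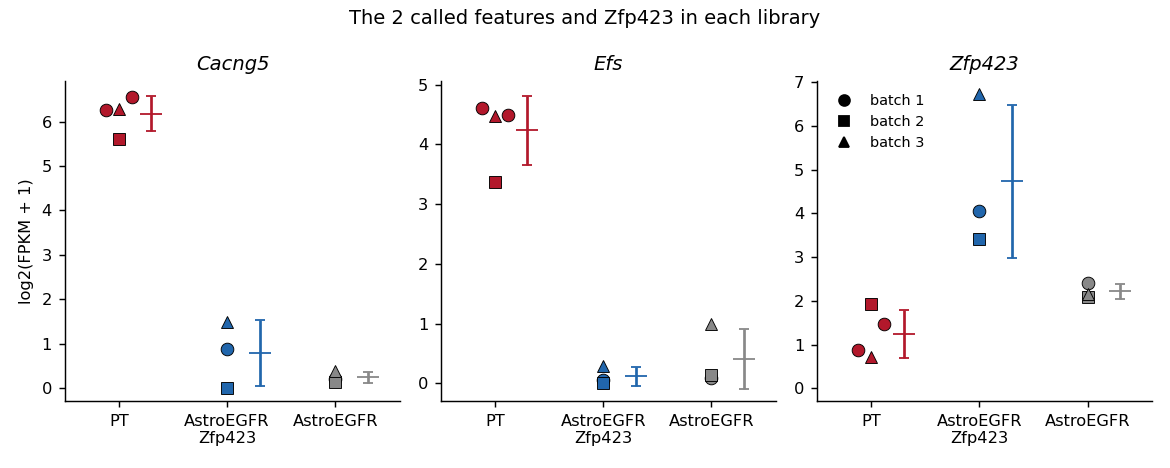
log2(FPKM + 1) of *Cacng5*, *Efs* and *Zfp423* in each library (points; symbols give the astrocyte batch) with the mean and SD of each group (bars). PT libraries hold 47.9 to 93.5 FPKM of *Cacng5* against at most 1.82 FPKM in Zfp423 astrocytes.

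With the astrocyte batch as a block, which pairs each tumour line with the culture of its lineage, 12 features were called (0.0981%), 8 higher and 4 lower in PT. These included both genes above. With PT4 left out, the number in the sample title is the same block as the astrocyte batch. That fit called 0, so none of the 12 calls held without PT4. Without a block, 0 were also called with PT1 and PT4, which share their parent cells, averaged. Of the 12, those outside the naming rule were chosen after their values were seen. Higher were *Plvap*, an endothelial diaphragm protein, *Kirrel3*, an adhesion molecule of synapses, *Trp53i11*, *Mpzl1*, *Gas7* and the uncharacterised 6530418L21Rik. *Trp53i11* was at 112.8, 94.1, 372 and 85.1 FPKM across PT1 to PT4 but at 8.89, 4.03 and 13.3 FPKM in Zfp423 astrocytes. The lower ones included *Itgb5*, the integrin β5 chain that binds vitronectin, *Nedd9*, a focal adhesion scaffold of the same family as *Efs*, and *Myof*. *Itgb5* was at 17.2, 22.7, 4.11 and 18.7 FPKM across PT1 to PT4 against 244, 178 and 44.8 FPKM in Zfp423 astrocytes. *Nedd9* was at 2.08 to 7.71 FPKM in PT and 41.2, 51.5 and 14.6 FPKM in Zfp423 astrocytes. Within batches, which the fit itself uses, the differences were −3.70, −2.92 and −3.17 for *Itgb5* and −2.49, −2.59 and −2.34 for *Nedd9* on the log2 scale in batches 1, 2 and 3.

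The next features by p-value did not pass the threshold without the block, and the 10 described in this paragraph did not pass with it either. Among those higher in PT were *Epn2*, an endocytic adaptor, at 69.5 to 93.9 FPKM against 14.0 to 24.0 FPKM, and the ubiquitin ligase *Trim62*, at 11.4 to 23.3 against 1.00 to 2.61 FPKM. *Tnfrsf21* (death receptor 6) was at 28.0 to 99.1 FPKM in PT and 0.346 to 4.82 FPKM in Zfp423 astrocytes. *Kcnc1*, a fast voltage-gated potassium channel, was at 7.76 to 11.3 FPKM against 0 to 1.58 FPKM. The group was completed by *Chst7*, a sulfotransferase for chondroitin (18.3 to 37.1 against 3.13 to 5.44 FPKM), the glycerol-3-phosphate dehydrogenase *Gpd1*, *Lhpp*, *Stk32a*, *Syt13* and *Zbtb7c*, with log2 fold changes from 2.05 to 3.13. All 10 had limma adjusted p-values of 0.0933. Their groups did not overlap, against 7.34% of all features in this direction, but they were picked by small p, which favours this. *Kcnc1*, *Gpd1*, *Stk32a* and *Syt13* had passed the minimum through PT alone and so had to be higher there.

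None of the 12 top-ranked features that were lower in PT passed the threshold without the block, and their limma adjusted p-values ran from 0.0933 to 0.123. With the block, only *Myof* of the 12 passed. *Ahnak*, a giant scaffold beneath the plasma membrane, was at 14.2, 3.25, 11.4 and 10.1 FPKM across PT1 to PT4 but at 321, 346 and 84.0 FPKM in Zfp423 astrocytes (−4.45 ± 0.62). *Myof*, a membrane repair protein, was at 6.88 to 18.9 FPKM against 63.7, 102.4 and 102.3 FPKM (−2.80 ± 0.37). *Thbs3*, a thrombospondin of the matrix, was at 2.15 to 4.88 FPKM against 17.0 to 38.4 FPKM, and *Arntl*, the clock factor BMAL1, at 4.97 to 7.49 FPKM against 18.02 to 38.6 FPKM. In all of them the highest tumour line lay below the lowest Zfp423 culture, against 6.94% of all features, but they were picked by small p, which favours this. *Hcfc1r1*, *Jub* (Ajuba, a LIM protein of adhesions and the Hippo pathway), *Ptplad2* and *Mgst3* had log2 fold changes between −1.43 and −2.82. *Cyr61*, *Tagln*, *Ltbp1* and *Grem1* are described with their gene groups.

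Zfp423 astrocytes 3 decided the number of calls. Without it, limma called 618 features, 131 higher (1.07%) and 487 lower (3.98%) in PT. Leaving out any other library gave between 0 and 31. The 618 calls compare the tumour lines with the 2 cultures that had macrophage transcripts: 14 of the 16 microglia and macrophage markers were among the lower ones, as against 0 of 16 with all 7 libraries, where 13 were lower at an unadjusted p below 0.05. Of these 16 markers, 14 had passed the minimum through Zfp423 astrocytes alone.

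The position of the libraries outside that fit was read on these 618 features as a description, on a scale from 0 (mean of Zfp423 astrocytes 1 and 2) to 1 (mean of PT). On the 487 lower features, Zfp423 astrocytes 3 had a median position of 1.00 and was nearer to PT in 450 (92.4%). On the 131 higher features, its median position was 0.64 and it was nearer to PT in 83 (63.4%). The parental libraries lay between, at medians of 0.71, 0.91 and 0.42 on the lower features and 0.34, 0.39 and 0.26 on the higher ones for batches 1, 2 and 3. Zfp423 astrocytes 3 counted in the minimum of 1 FPKM, and 2 of the 618 were called with it in the fit, so its position is tied to how the features were chosen. The parental library of batch 2, which had 3.25 FPKM of *Zfp423*, was nearer to PT in 363 of the 487 lower features (74.5%). On the 131 higher features it was nearer to PT in 48 (36.6%).

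**Figure D3:**
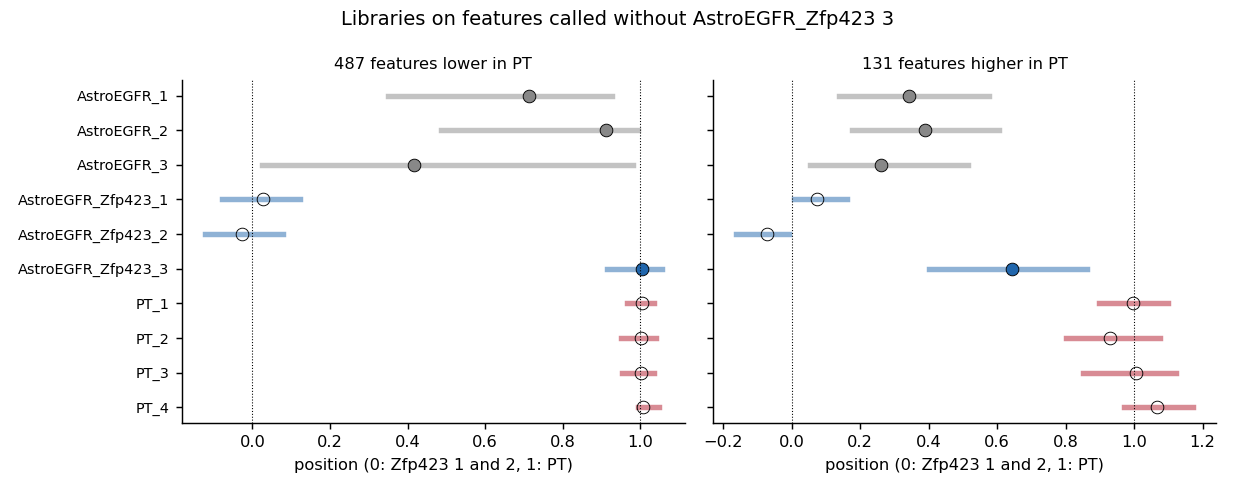
Median (circles) and quartiles (bars) of the position of each library between Zfp423 astrocytes 1 and 2 (0) and PT (1) over the 487 features lower and the 131 higher in PT; filled circles mark libraries outside the fit that called the features. Zfp423 astrocytes 3 sits at 1.00 and 0.64.

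The differences within a batch share no library and were compared on the log2 scale. Over the 12230 features, they correlated at r = 0.558 between batches 1 and 2, 0.0809 between batches 1 and 3 and 0.111 between batches 2 and 3. In 175 features (1.43%) PT was higher by at least 1 in all 3 batches, and in 134 (1.1%) it was lower by at least 1 in all 3. The groups below are described by counts and medians, to be read against these shares and those over all features above. A member that passed the minimum of 1 FPKM through its level in 1 group alone had to be higher there: over all features, 469 had a mean below 1 FPKM in Zfp423 astrocytes and 601 a mean below 1 FPKM in PT. Of the genes described singly below, *Eln*, *Sox3* and *Sox10* were kept in this way through PT and *Lox*, *Fmod*, *Omd* and *Shh* through Zfp423 astrocytes, besides those named as such with their groups.

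The contractile genes include smooth-muscle actin and its partners, which serum response factor (SRF) and its actin-regulated coactivators switch on. The 19 kept members of 21 had a lower mean in PT (median log2 fold change −2.09), 4 of them kept through Zfp423 astrocytes alone. An unadjusted p below 0.05 was reached by 13, against 8.23% of all features, and 10 had no overlap between the groups, against 6.94%. None was called with all 7 libraries, and 10 were called lower without Zfp423 astrocytes 3. The median difference was −2.49, −4.54 and −0.68 in batches 1, 2 and 3.

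*Acta2*, smooth-muscle α-actin, was at 19.9, 0.239, 4.95 and 2.69 FPKM across PT1 to PT4 but at 1168, 1994 and 87.5 FPKM in Zfp423 astrocytes 1 to 3. The parental cells had 725 to 1730 FPKM. Every tumour line lay below every astrocyte culture, and Zfp423 astrocytes 3 stood between them (log2 fold change −6.92 ± 1.25, limma adjusted p = 0.147). *Tagln* (transgelin, an actin-bundling protein) was at 2.18, 0.333, 3.20 and 1.96 FPKM across PT1 to PT4 against 407, 960 and 35.5 FPKM (−6.49 ± 1.03, limma adjusted p = 0.114). *Pdlim7*, a LIM protein of stress fibres, was at 13.7 to 28.6 FPKM against 52.5, 126 and 61.3 FPKM. In 7 of the 19 genes PT was lower by at least 1 in all 3 batches (36.8%, against 1.1% of all features): *Acta2*, *Tagln*, *Pdlim7*, *Cnn2*, *Myl9*, *Actn1* and *Flna*, which encode calponin 2, a myosin light chain, α-actinin 1 and filamin A besides those named above. The 11 pericyte and smooth muscle markers summed to 105.1, 119.7 and 20.9 FPKM in Zfp423 astrocytes 1 to 3 and to 6.37 to 57.4 FPKM in PT, and like the fibroblast markers they were lowest in replicate 3 of the group. *Srf* itself was at 7.27 to 17.4 FPKM in PT and 12.5 to 22.9 FPKM in Zfp423 astrocytes.

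The YAP and TAZ list holds targets of these Hippo effectors, which act through TEAD factors, and also the genes of the effectors and of the TEAD factors themselves. Of 14 kept members of 16, 1 was kept through Zfp423 astrocytes alone, and 10 had a lower mean in PT (median −1.13). Of these 10, 7 had an unadjusted p below 0.05 (8.23% of all features), and the same number had no overlap (6.94% of all). Another gene of the list, Ajuba, is in the table under its older symbol *Jub* and stands outside these counts. With it, 11 of 15 had a lower mean (median −1.24), 8 with an unadjusted p below 0.05 and 8 without overlap. In 4 of the 14, *Cyr61*, *Amotl2*, *Axl* and *Nuak2*, PT was lower by at least 1 in all 3 batches. None was called with all libraries and 3 were called lower without Zfp423 astrocytes 3. *Cyr61*, a secreted matricellular protein, was at 9.40, 6.75, 22.6 and 10.1 FPKM across PT1 to PT4 but at 233, 295 and 87.1 FPKM in Zfp423 astrocytes, within which replicate 3 was lowest (−3.92 ± 0.52, limma adjusted p = 0.0933). *Ctgf*, its close relative, was at 4.56, 2.78, 19.97 and 4.07 FPKM against 166, 261 and 23.7 FPKM (−3.90 ± 0.89). In batch 3 the 2 values of *Ctgf* nearly met. The receptor kinase *Axl* was at 15.5 to 73.4 FPKM against 137, 221 and 154 FPKM. *Yap1* (24.8 to 44.7 against 26.3 to 49.0 FPKM) and *Wwtr1*, which encodes TAZ (59.2 to 183 against 61.3 to 117 FPKM), overlapped between the groups.

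The promoter windows of these genes, 250 bases before to 50 after the annotated start (RefSeq, GRCm38.p6), were searched on both strands for the TEAD motif GGAATG and for the CArG box, the element that SRF binds (CC, 6 letters A or T, GG). The build differs from mm9, on which the reads were aligned, so coordinates are those of GRCm38.p6 only. GGAATG stood in 10 of the 11 genes of the YAP and TAZ list with a window in the table, 3 of which (*Yap1*, *Wwtr1* and *Tead3*) are effectors and not targets, in 7 of the 16 contractile genes and in 4481 of 27025 genes overall (16.6%). An exact CArG box stood in 4 of the 16 contractile genes, 0 of the 11 of the YAP and TAZ list and 488 genes overall (1.81%). *Tagln*, *Actg2*, *Tgfb1i1*, *Ctgf*, *Tead1* and *Nuak2* were not matched, and *Jub* was not searched. A match is only a description of these letters, and no match says nothing of sites outside the window. The windows are shown for *Acta2* and *Cnn1*, the textbook contractile genes, for *Myl9*, which has an exact CArG box, and for the TEAD targets *Cyr61* (Ccn1 in RefSeq) and *Axl*, with each match in capitals (CATTCC is GGAATG on the other strand). They are written 5′ to 3′ on the strand of the gene.
Acta2 (chr19:34255324-34255623, minus strand): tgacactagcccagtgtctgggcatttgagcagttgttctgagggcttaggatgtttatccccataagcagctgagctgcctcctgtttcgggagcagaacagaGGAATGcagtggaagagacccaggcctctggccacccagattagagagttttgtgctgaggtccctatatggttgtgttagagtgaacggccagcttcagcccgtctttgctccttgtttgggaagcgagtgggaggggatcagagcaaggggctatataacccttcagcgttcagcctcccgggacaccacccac
Cnn1 (chr9:22099003-22099302, plus strand): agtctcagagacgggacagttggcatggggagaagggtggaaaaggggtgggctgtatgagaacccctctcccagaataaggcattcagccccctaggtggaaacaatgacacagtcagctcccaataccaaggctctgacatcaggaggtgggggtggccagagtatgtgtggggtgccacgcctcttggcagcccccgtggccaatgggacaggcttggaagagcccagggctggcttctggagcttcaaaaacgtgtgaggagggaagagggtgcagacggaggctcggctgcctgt
Myl9 (chr2:156775214-156775513, plus strand): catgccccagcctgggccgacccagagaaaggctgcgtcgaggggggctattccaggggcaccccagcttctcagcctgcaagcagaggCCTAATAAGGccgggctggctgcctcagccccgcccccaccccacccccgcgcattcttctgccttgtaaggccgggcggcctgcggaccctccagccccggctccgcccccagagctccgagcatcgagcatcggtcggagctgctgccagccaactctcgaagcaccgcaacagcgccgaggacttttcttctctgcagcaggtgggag
Cyr61 (chr3:145649936-145650235, minus strand): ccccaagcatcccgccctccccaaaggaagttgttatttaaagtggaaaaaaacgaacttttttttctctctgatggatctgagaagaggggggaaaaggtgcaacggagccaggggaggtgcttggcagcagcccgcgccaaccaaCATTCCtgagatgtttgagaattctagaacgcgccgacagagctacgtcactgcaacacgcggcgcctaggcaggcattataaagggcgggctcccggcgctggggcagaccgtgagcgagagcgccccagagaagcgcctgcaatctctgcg
Axl (chr7:25788684-25788983, minus strand): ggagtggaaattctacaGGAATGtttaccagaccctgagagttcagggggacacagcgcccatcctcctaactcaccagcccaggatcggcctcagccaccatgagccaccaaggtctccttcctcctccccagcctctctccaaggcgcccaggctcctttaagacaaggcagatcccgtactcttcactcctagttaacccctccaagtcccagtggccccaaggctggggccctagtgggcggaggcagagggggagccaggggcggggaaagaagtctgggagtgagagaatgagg
Thus the window of *Acta2* held 1 GGAATG, 146 bases before the start, and those of *Cyr61* and *Axl* 1 each, 103 and 233 bases before it. *Myl9* had its CArG box 161 bases before the start, and *Cnn1* held neither motif.

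**Figure D4:**
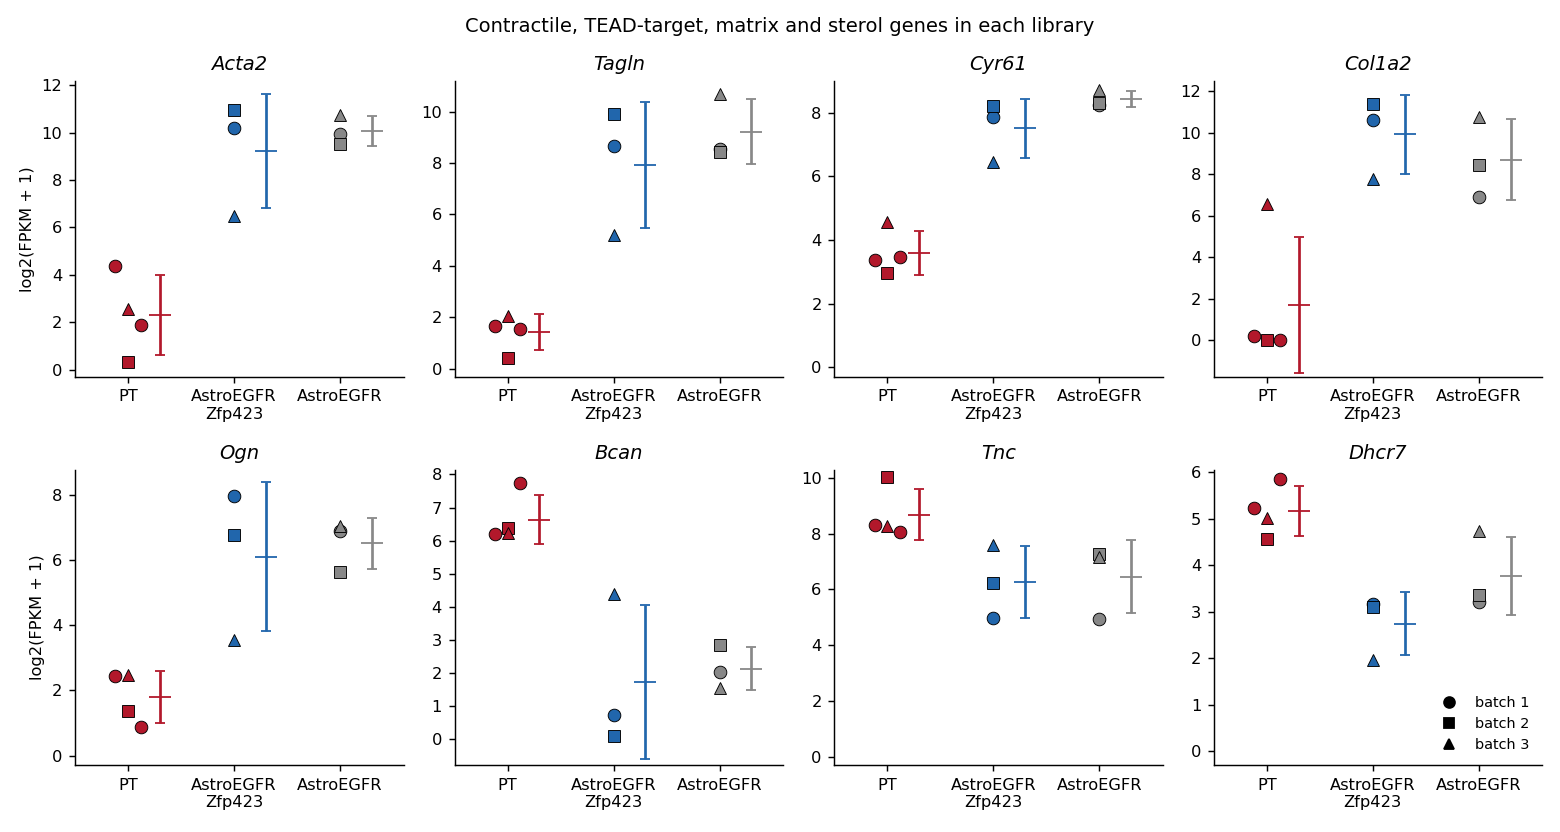
log2(FPKM + 1) of 8 genes in each library (points; symbols give the astrocyte batch) with the mean and SD of each group (bars). *Acta2*, *Tagln*, *Cyr61* and *Ogn* are lower in all 4 PT libraries than in all 3 Zfp423 libraries, as is *Col1a2*, while *Bcan*, *Tnc* and *Dhcr7* are higher; among the Zfp423 libraries, replicate 3 (blue triangle) is nearest to PT for every gene drawn but *Dhcr7*.

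Of the collagens and fibrillar matrix genes, none was called with all 7 libraries. Of 27 kept members of 28, 4 were kept through Zfp423 astrocytes alone and 1 through PT alone, and 25 had a lower mean in PT (median −2.17), with 12 lower and 2 higher at an unadjusted p below 0.05 (8.23% and 7.48% of all features). The median was −3.53 and −4.73 in batches 1 and 2 but 0.64 in batch 3, and 3 genes had no overlap on the lower side and 1 on the higher side, shares of the list not far from the 6.94% and 7.34% of all features. PT was lower by at least 1 in all 3 batches in 3 genes, *Col1a2*, *Col8a1* and *Loxl3*, and higher in 1, *Eln*. Without Zfp423 astrocytes 3, 15 were called lower. *Col1a2*, a chain of type I collagen, was at 0.161, 0.00354, 94.9 and 0.0114 FPKM across PT1 to PT4 and 1558, 2641 and 216 FPKM in Zfp423 astrocytes 1 to 3. PT1, PT2 and PT4 thus had next to none, whereas PT3 had a level between those and the astrocytes (−8.21 ± 1.72, limma adjusted p = 0.176). *Loxl3*, a collagen cross-linking oxidase, was at 4.74 to 13.7 FPKM against 19.3 to 57.5 FPKM. *Lox*, the main enzyme of that family, was at 0.279 to 1.36 FPKM in PT and at 168, 575 and 0.467 FPKM in Zfp423 astrocytes, so that replicate 3 lay within the range of PT. *Eln* (elastin) went the other way, at 2.09 to 7.62 FPKM against 1.46, 0.0103 and 0.265 FPKM.

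The small leucine-rich proteoglycans bind collagen fibrils. Of 10 genes 7 were kept, 4 of them through Zfp423 astrocytes alone, and these 7 were lower by mean (median −3.06). The median was −4.83 and −3.53 in batches 1 and 2 and 0.03 in batch 3. Of the 7, 5 had an unadjusted p below 0.05 (8.23% of all features) and 3 had no overlap (6.94% of all). Of those 3, *Fmod* and *Omd* were kept through Zfp423 astrocytes alone and so had to be lower in PT. Without Zfp423 astrocytes 3, 4 of the 7 were called lower (3.98% of all). *Ogn* (osteoglycin) was at 4.42, 1.58, 4.57 and 0.832 FPKM across PT1 to PT4 against 250, 108.5 and 10.7 FPKM (−4.31 ± 0.98). *Fmod* (fibromodulin) was at most 0.218 FPKM in PT against 28.0, 10.6 and 0.626 FPKM, and *Omd* (osteomodulin) at most 0.150 FPKM against 24.6, 5.82 and 1.14 FPKM. The same libraries that were high for matrix genes had the high sums of fibroblast markers given above, with which the collagen list shares *Col1a1*, *Col1a2*, *Col3a1* and *Fn1*.

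Of 18 kept genes of plasminogen activation and metalloproteases, 1 was kept through PT alone and 3 through Zfp423 astrocytes alone. None was called with all 7 libraries, and 1 was called higher and 3 lower without Zfp423 astrocytes 3. At an unadjusted p below 0.05, 3 were higher and 3 lower (7.48% and 8.23% of all features). *Serpine2* and *Mmp15* were higher and *Timp1* lower by at least 1 in all 3 batches. *Timp1*, a metalloprotease inhibitor, was at 44.5 to 59.0 FPKM in PT and 253, 577 and 104 FPKM in Zfp423 astrocytes. *Mmp15*, a membrane-type metalloprotease, was at 44.5 to 187 FPKM in PT against 6.61, 0.291 and 18.7 FPKM. Neither gene had overlapping groups. Of 22 kept integrin subunits and laminin chains, 2 were kept through Zfp423 astrocytes alone and so had to be lower in PT. By mean, 8 were higher and 14 lower in PT (median −0.33). At an unadjusted p below 0.05, 1 was higher and 6 lower (7.48% and 8.23% of all features). None was called with all 7 libraries and no block, and 3 were called lower without Zfp423 astrocytes 3. With the astrocyte batch as a block, *Itgb5* was called lower, and it was lower by at least 1 in all 3 batches.

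The lecticans, link proteins and tenascins are matrix molecules that surround neurons and glial progenitors. None of the 9 kept members of 14 was called with all 7 libraries. The 9 had a higher mean in PT (median 1.65), 1 of them kept through PT alone. An unadjusted p below 0.05 was reached by 5 (7.48% of all features), and 4 had no overlap (7.34% of all). The median was 2.92, 1.83 and 0.21 in batches 1, 2 and 3, *Bcan* was higher by at least 1 in all 3, and 2 genes were called higher without Zfp423 astrocytes 3. *Bcan* (brevican) was at 72.3, 81.5, 74.1 and 211 FPKM across PT1 to PT4 but at 0.629, 0.0541 and 20.03 FPKM in Zfp423 astrocytes 1 to 3 (4.91 ± 0.99, limma adjusted p = 0.168). *Cspg5* (neuroglycan C) was at 23.4 to 160 FPKM against 2.42, 0.111 and 11.8 FPKM (3.94 ± 0.89). *Tnc* (tenascin C) was at 315, 1046, 308 and 269 FPKM across PT1 to PT4 against 30.9, 74.4 and 191 FPKM (2.40 ± 0.70). For these 3 genes the groups did not overlap, and Zfp423 astrocytes 3 was the highest of its group.

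Of 17 Sox factors, which maintain neural and glial progenitors among other roles, 12 were kept, 3 of them through PT alone. These 12 had a higher mean in PT (median 1.33), but 2 had an unadjusted p below 0.05, 1 had no overlap, and the median was −0.25 in batch 3. *Sox2*, a regulator of neural stem cells, was at 255, 80.1, 96.3 and 255 FPKM across PT1 to PT4 but at 80.7, 3.15 and 141 FPKM in Zfp423 astrocytes, so that the groups overlapped. *Sox8* was at 22.1 to 69.7 FPKM against 17.4, 0.628 and 28.1 FPKM, and *Sox9*, a determinant of glial fate, at 18.6 to 59.5 FPKM against 12.6, 5.08 and 21.8 FPKM. The low value of the group was that of Zfp423 astrocytes 2 each time. *Sox3* was at 0.562 to 27.2 FPKM in PT and at most 0.134 FPKM in Zfp423 astrocytes. Of 19 kept neural progenitor and glioma stem cell genes, 4 were higher at an unadjusted p below 0.05 and 0 lower (median 1.07, −0.50 in batch 3). *Olig2*, a factor of oligodendrocyte progenitors, was at 328, 72.9, 39.7 and 360 FPKM across PT1 to PT4 against 4.10, 0 and 64.0 FPKM. *Ptprz1*, a receptor phosphatase, was at 12.9 to 180 FPKM against 2.32, 0.156 and 19.1 FPKM, and *Pax6* at 3.13 to 14.8 FPKM against 0.295, 0.320 and 2.50 FPKM.

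Genes of sterol and fatty acid synthesis, which SREBP factors control, had a positive median difference in all 3 batches. The 24 kept members of 26, none of them kept through 1 group alone, had a higher mean in PT (median 1.06), 11 with an unadjusted p below 0.05, against 7.48% of all features, and 7 without overlap, against 7.34%. The median was 1.51, 0.19 and 0.83 in batches 1, 2 and 3, and 4 genes were higher by at least 1 in all 3 batches, namely *Dhcr7*, *Insig1*, *Scd1* and *Elovl6*. *Dhcr7*, the last enzyme of cholesterol synthesis, was at 36.6, 22.7, 31.3 and 57.2 FPKM across PT1 to PT4 but at 8.04, 7.63 and 2.90 FPKM in Zfp423 astrocytes (2.42 ± 0.41, limma adjusted p = 0.137). *Elovl6*, a fatty acid elongase, was at 24.96 to 47.6 FPKM against 8.37, 12.04 and 7.14 FPKM (1.98 ± 0.30, limma adjusted p = 0.0951). *Insig1*, the sterol sensor that restrains SREBP, was at 113 to 274 FPKM against 61.3, 57.7 and 27.0 FPKM. Zfp423 astrocytes 3 was the lowest of its group for these 3 genes and hence the farthest from PT. Without it, 2 members were called.

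The ERK list holds output genes of the pathway, which EGFR signalling induces, and the receptors and ligands of the EGFR family. Of 23 kept members, 1 of them kept through PT alone, 6 were higher at an unadjusted p below 0.05 (7.48% of all features) and 0 lower (median 0.43). None differed by at least 1 in the same direction in all 3 batches. *Spry4* (sprouty 4), a feedback inhibitor, was at 42.4, 67.7, 72.6 and 55.7 FPKM across PT1 to PT4 but at 5.30, 2.92 and 36.3 FPKM in Zfp423 astrocytes, and was the 1 gene of the list whose groups did not overlap. *Spred2*, another inhibitor of the pathway, was at 13.3 to 50.6 FPKM against 8.51, 7.41 and 18.9 FPKM, and *Phlda1* at 16.5 to 147 FPKM against 11.0, 10.9 and 22.9 FPKM. *Egfr* was at 18.9 to 134 FPKM in PT and 116, 82.2 and 343 FPKM in Zfp423 astrocytes. Whether this gene total includes reads of the human EGFRvIII vector is unknown. Without replicate 3, 4 members were called higher.

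Of 19 kept voltage-gated and AMPA receptor channel subunits, *Cacng5* was called, and 5 were higher and 1 lower at an unadjusted p below 0.05 (7.48% and 8.23% of all features). PT alone had brought 5 of the 19 past the minimum, *Cacng5* among them, and Zfp423 astrocytes alone 2. *Cacng7*, a relative of *Cacng5*, was at 48.4, 21.7, 74.9 and 62.5 FPKM across PT1 to PT4 and 14.0, 5.12 and 21.5 FPKM in Zfp423 astrocytes, and both genes were higher by at least 1 in all 3 batches. *Gria3*, an AMPA receptor subunit, was at 9.79 to 25.1 FPKM against 3.04 to 6.49 FPKM, and the potassium channel *Kcnd3* at 11.6 to 28.8 FPKM against 0.197 to 7.15 FPKM. The protein kinase C isoform *Prkcb* was at 55.1 to 93.0 FPKM in PT and at 6.73, 6.78 and 61.1 FPKM in Zfp423 astrocytes, where replicate 3 lay within the range of PT, and 2 of 6 kept isoforms were higher at an unadjusted p below 0.05. The astrocyte gap junction gene *Gja1* was at 202 to 309 FPKM against 65.3, 52.2 and 91.1 FPKM (1.80 ± 0.29, limma adjusted p = 0.114), and *Atp1b2*, a sodium pump subunit of glia, at 7.85 to 309 FPKM against 2.93, 0.0804 and 3.66 FPKM. Over the 17 kept astrocyte markers, 13 had a higher and 4 a lower mean in PT, 5 were higher and 0 lower at that level, and the median was 1.25 and 2.17 in batches 1 and 2 but −1.33 in batch 3.

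BMP, TGF-β and SMAD genes are the pathway in which *Zfp423* acts. Of 38 kept members of 45, 2 were higher and 9 lower in the tumour lines at an unadjusted p below 0.05, against 7.48% and 8.23% of all features (median −0.29). The groups did not overlap in 3 on the higher and 5 on the lower side, against 7.34% and 6.94% of all. None was called with all 7 libraries, and 8 were called lower without Zfp423 astrocytes 3 (3.98% of all). Of the 38, 8 were kept through Zfp423 astrocytes alone, *Grem1*, *Smad6* and *Bmp4* among them, and 2 through PT alone. Of the antagonists, *Grem1*, which binds BMPs, was at 0.158, 0, 0.406 and 0.819 FPKM across PT1 to PT4 but at 6.95, 19.4 and 36.0 FPKM in Zfp423 astrocytes (−3.79 ± 0.53, limma adjusted p = 0.0933). Another antagonist, *Chrd*, was higher in PT without overlap (2.24 to 4.68 against 1.42 to 1.91 FPKM). *Smad6*, an inhibitory SMAD that BMP signals induce, was at most 0.621 FPKM in PT against 6.12, 4.31 and 2.47 FPKM in Zfp423 astrocytes and 14.4 to 26.3 FPKM in the parental cells. Its relative *Smad7* was at 1.44 to 2.46 FPKM against 11.0, 12.1 and 4.31 FPKM. *Ltbp1*, which stores TGF-β in the matrix, was at 5.62, 2.94, 3.24 and 4.13 FPKM across PT1 to PT4 against 24.1, 94.5 and 97.9 FPKM (−3.67 ± 0.50, limma adjusted p = 0.0933), and it was the 1 feature called without Zfp423 astrocytes 1. Its relative *Ltbp3* was higher in PT without overlap (62.4 to 74.8 against 31.8 to 41.1 FPKM). Of the ligands, *Tgfb3* was at 4.19 to 15.6 FPKM against 79.6, 21.6 and 21.3 FPKM, and *Bmp4* at 0.0606 to 0.364 FPKM against 12.6, 2.08 and 0.301 FPKM. *Tgfb2*, another TGF-β ligand, went the other way, at 11.5, 11.4, 39.98 and 26.2 FPKM across PT1 to PT4 against 6.92, 3.52 and 7.02 FPKM, and was higher by at least 1 in all 3 batches. Thus *Bmp4* in replicate 3 lay within the range of PT, whereas *Grem1*, *Smad6*, *Tgfb3* and *Ltbp1* were lower by at least 1 in all 3 batches.

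Of 7 Slit and Robo genes, which act in axon guidance, 4 were kept. The ligands *Slit2* and *Slit3*, which repel axons and migrating cells, passed the minimum through Zfp423 astrocytes alone and so had to be lower in PT. The means of their receptors *Robo1* and *Robo2* were higher in PT (log2 fold changes 0.49 and 0.46) with overlapping groups. Without Zfp423 astrocytes 3, *Robo1* changed direction (−0.34). *Slit2* was at 0.0471, 0.0406, 0.535 and 0.0592 FPKM across PT1 to PT4 but at 23.9, 44.8 and 1.06 FPKM in Zfp423 astrocytes (−3.53 ± 0.97, limma adjusted p = 0.218). *Slit3* was at 1.26, 0.0255, 0.991 and 0.430 FPKM against 13.2, 7.56 and 1.62 FPKM (−2.09 ± 0.61, limma adjusted p = 0.234). Both were called lower without Zfp423 astrocytes 3, which held values just above PT. Of 24 kept semaphorins, plexins and neuropilins, 3 were higher and 1 lower at an unadjusted p below 0.05, with 2 and 1 without overlap, and 3 of the 24 were kept through PT alone. The shares over all features are 7.48% and 8.23% for the first counts and 7.34% and 6.94% for the others. The semaphorin *Sema3c* was at 0.475 to 4.24 FPKM against 14.4, 75.8 and 15.2 FPKM, and the semaphorin receptor *Plxnd1* at 21.9 to 39.1 FPKM against 8.83, 6.28 and 18.5 FPKM.

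Of 22 kept Wnt ligands, receptors and inhibitors, 1 was higher and 7 lower at an unadjusted p below 0.05 (7.48% and 8.23% of all features), and 1 and 4 had no overlap (7.34% and 6.94% of all). Zfp423 astrocytes alone had brought 3 of the 22 past the minimum and PT alone 1. *Fzd9* was higher and *Fzd6* and *Sfrp1*, a Wnt inhibitor, lower by at least 1 in all 3 batches. The receptor *Fzd9* was at 20.8, 93.1, 4.94 and 43.2 FPKM across PT1 to PT4 but at most 1.48 FPKM in Zfp423 astrocytes, while *Fzd6* (2.81 to 7.38 against 12.9 to 53.3 FPKM) and *Fzd7* (6.91 to 19.98 against 26.5 to 44.3 FPKM) went the other way. *Wnt7b*, a ligand of neural progenitors, was at 466 and 253 FPKM in PT1 and PT4 but 1.83 and 21.7 FPKM in PT2 and PT3, against 5.12, 0.204 and 13.8 FPKM in Zfp423 astrocytes. *Shh*, the hedgehog ligand, was at 0.00703 to 0.919 FPKM in PT and 10.4, 0.404 and 0.478 FPKM in Zfp423 astrocytes. *Vegfa*, the angiogenic growth factor, was at 91.3 to 216 FPKM against 30.4, 78.4 and 125.5 FPKM. These 3 ligands overlapped between the groups. Of the 11 kept Notch pathway genes, 1 was higher and 1 lower at that level, shares near those over all features.

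*Nfatc4*, *Pappa* and *Klf5* belong to the list of further genes named by the rule. *Nfatc4*, a calcium-regulated transcription factor, was at most 0.0611 FPKM in PT and at 11.8, 21.5 and 0.0715 FPKM in Zfp423 astrocytes. *Pappa*, a protease that frees insulin-like growth factors, was at most 0.0214 FPKM against 5.25, 4.89 and 0.730 FPKM, and *Klf5* at 0.940 to 1.99 FPKM against 7.69, 1.98 and 2.87 FPKM. Their limma adjusted p-values were 0.276, 0.218 and 0.306. For *Klf5* the groups overlapped, since PT3 (1.99 FPKM) was just above Zfp423 astrocytes 2 (1.98 FPKM). *Nfatc4* and *Pappa* had passed the minimum through Zfp423 astrocytes alone and so had to be lower in PT.

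**Figure D5:**
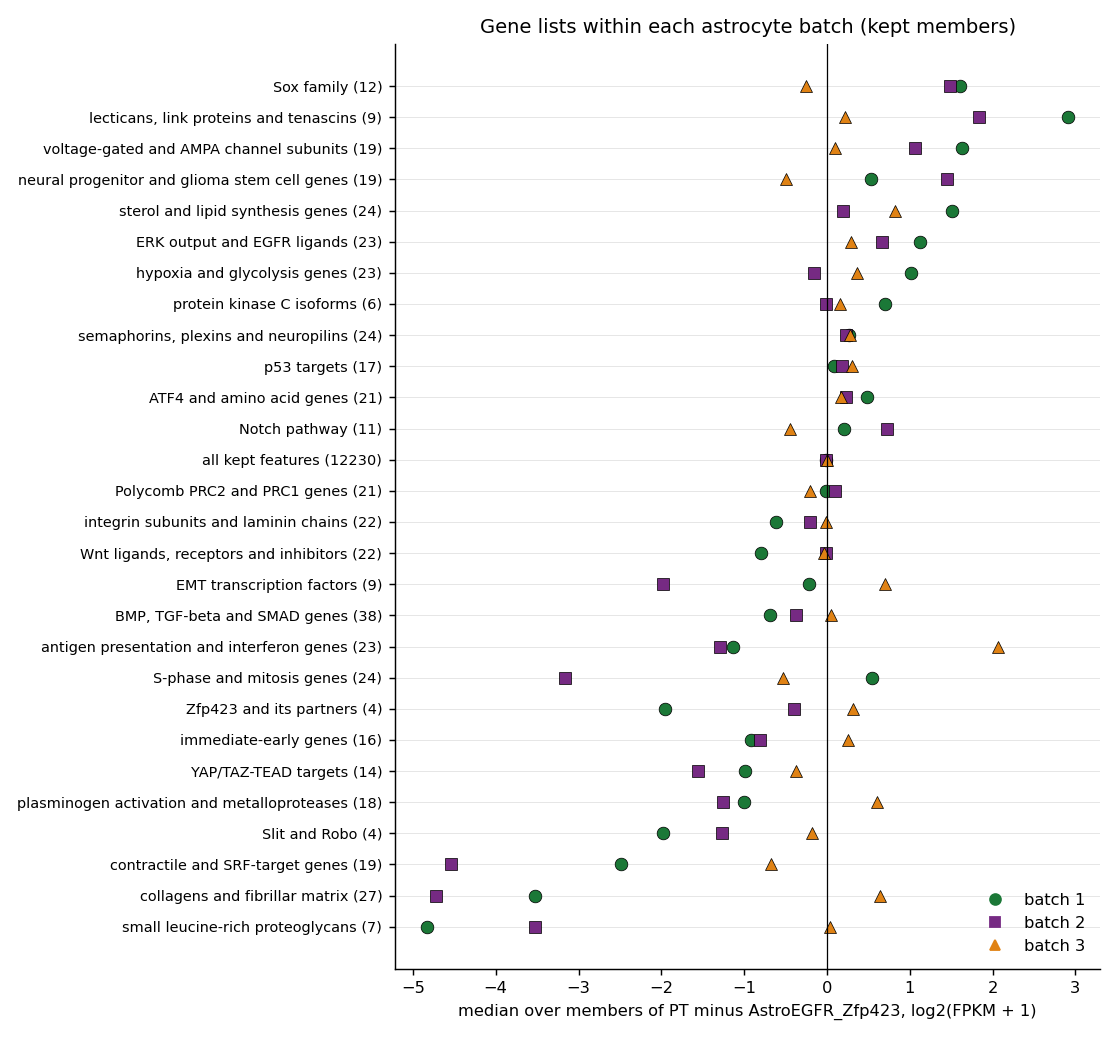
Median over the kept members of each gene group (number in parentheses) of PT minus Zfp423 astrocytes on the log2(FPKM + 1) scale, within astrocyte batches 1 (circles), 2 (squares) and 3 (triangles). Collagens go from −4.73 in batch 2 to 0.64 in batch 3, contractile genes from −4.54 to −0.68, and sterol genes from 0.19 in batch 2 to 0.83 in batch 3.

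Of the 16 immediate-early genes, 2 were higher and 5 lower at an unadjusted p below 0.05. *Jund* was at 40.0 to 90.6 FPKM in PT against 8.004 to 22.8 FPKM, and *Klf6* at 28.5 to 45.5 FPKM against 71.9 to 79.4 FPKM. In the hypoxia and glycolysis group, with 1 of 23 kept through PT alone, 3 were higher at that level. *Egln3*, an oxygen-sensing hydroxylase, was at 13.4 to 39.2 against 3.13 to 8.89 FPKM and *Pfkfb3* at 11.97 to 15.3 against 3.37 to 9.44 FPKM. Of 17 p53 targets 2 were higher, *Trp53i11* and the cell cycle inhibitor *Cdkn1a* (69.1 to 162 against 23.3 to 46.2 FPKM). Among 9 factors of epithelial-mesenchymal transition, 3 of them kept through Zfp423 astrocytes alone, 2 were higher and 1 lower, with *Zeb1* at 82.9 to 117 FPKM against 38.0, 25.9 and 63.4 FPKM. For the 21 Polycomb genes 1 was higher and 1 lower, and the median was −0.01. The 21 genes of amino acid synthesis and the ATF4 response had 1 higher and 0 lower. Among *Zfp423* and its partners, *Zfp423* itself, which the vector supplies, was lower, as was *Ebf1* (0.117 to 2.39 against 8.59, 4.15 and 1.19 FPKM, groups overlapping), which was kept through Zfp423 astrocytes alone and so had to be lower in PT, while *Ebf4* and *Zfp521* did not reach that level.

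None of the 24 S-phase and mitosis genes and none of the 23 kept antigen presentation and interferon genes had an unadjusted p below 0.05, and both groups varied among the tumour lines. S-phase and mitosis genes summed to 1649 and 1210 FPKM in PT1 and PT4, 147 and 329 FPKM in PT2 and PT3 and 496 to 1177 FPKM in Zfp423 astrocytes. Antigen presentation genes showed the opposite order, with 306 and 283 FPKM in PT1 and PT4, 1296 and 4176 FPKM in PT2 and PT3 and 622.5 to 1613 FPKM in Zfp423 astrocytes. *Sox10*, a factor of the oligodendrocyte lineage, was at 8.18 and 117 FPKM in PT1 and PT4, 0.103 FPKM in PT2 and listed at 0 in PT3. Over all kept features, the 4 tumour lines spanned at least 2 on the log2 scale in 2111 (17.3%), and the median SD was 0.46 in PT against 0.38 in Zfp423 astrocytes. PT1 and PT4 together stood above PT2 and PT3 by at least 2 in 137 features and below them by as much in 112.

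Over the remaining counts of cell type markers, 0 of 9 neuronal, 1 of 4 endothelial and 0 of 4 pericyte genes kept were higher, and 0, 1 and 1 lower, at an unadjusted p below 0.05. Of the 13 kept fibroblast and meningeal markers, 3 of them kept through Zfp423 astrocytes alone, 5 were lower and 0 higher, with *Pdgfrb*, the receptor of mural cells and fibroblasts, at 0.182 to 4.94 FPKM in PT against 72.9, 89.8 and 6.07 FPKM and *Fn1* (fibronectin) at 39.3 to 156 against 354, 674 and 125.4 FPKM. Of the 12 kept oligodendrocyte lineage genes 4 were higher and 0 lower, but 6 of the 12 had passed the minimum through PT alone and 1 through Zfp423 astrocytes alone. Between the Zfp423 and the parental astrocytes, with batch as a block, limma called 0 of the same 12230 features (0%), with 907 at an unadjusted p below 0.05.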

How the data were processed

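RNA-seq of 10 mouse cell cultures (3 AstroEGFR, 3 AstroEGFR_Zfp423 and 4 PT) was deposited by the authors as 1 table of FPKM values per gene. Per the labels and the submitters' processing notes, reads were aligned with TopHat 1.3 to mm9 and normalised with Cuffnorm. Normalisation across libraries was thus done by the authors, replicates were not pooled, and read counts were not used here, so the depth per library is unknown and no counting interval is given. The library kit is TruSeq in the labels, while the study's methods name a stranded ribosomal depletion kit. Short RNAs can receive very high FPKM values, and their share differed between libraries.

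Symbols of small non-coding RNA and replication-dependent histones (788, of which 182 reached the minimum) were dropped, as were 10212 other features with a mean below 1 FPKM over the 7 libraries compared. Values were tested as log2(FPKM + 1), so fold changes of low genes are understated. PT and Zfp423 astrocytes were compared with limma 3.58.1 (R 4.3.3; empirical Bayes with trend, two-sided, Benjamini-Hochberg adjustment over all 12230 features, threshold 0.05). The scripts, tested on simulated data, used Python 3.11.15. Zfp423 and parental astrocytes were compared in the same way with batch as a block.

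The members, gene lists and tests were chosen with earlier results of these data known. Named were the 12 features per direction with the largest change among those called, filled by smallest p where fewer passed, up to 3 members of each list by smallest p, and *Zfp423* with a fixed list of 13 further genes. Other genes were named after their values were seen. Some items are not reported here. Pairing by astrocyte batch comes from the study's account of the tumour lines. The deviations from the group means of PT and Zfp423 libraries of the same batch correlated at 0.13 (PT1), 0.20 (PT4), 0.129 (PT2) and 0.00318 (PT3), and those of different batches at −0.219 to 0.141, the highest being PT3 with Zfp423 astrocytes 2. Alternatives were pseudocount, filter, scaling, small RNA, fit, blocks and leaving out each library. Promoter windows were taken from RefSeq (GRCm38.p6).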

Additional observations from a re-analysis of the deposited data

Results flagged for a closer look

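In 12 of 109 genes checked, 1 of the 4 PT libraries lay far from the other 3 by Dixon's criterion at the 95% level, which chance alone meets in about 1 of 20 groups. PT3 was the highest for *Col1a2* (94.9 FPKM, the others at most 0.161), *Slit2* (0.535 FPKM, the others at most 0.0592), *Klf5* (1.99 FPKM, the others at most 1.04) and *Csf1r* (0.158 FPKM, the others at most 0.0332). PT2 was the lowest for *Gfap* (5.95 FPKM, the others at least 81.2), *Efs* (9.35 FPKM, the others at least 21.2) and *Ptplad2* (0.401 FPKM, the others at least 1.74). PT2 was the highest for *Tnc* (1046 FPKM, the others at most 315) and *Pax6* (14.8 FPKM, the others at most 3.27). PT4 was the highest for *Bcan* (210.9 FPKM, the others at most 81.5) and *Kcnc1* (11.3 FPKM, the others at most 8.08), and PT1 for *Egln3* (39.2 FPKM, the others at most 15.2).

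The small non-coding RNA and histone features that were left out of the comparison took 35.4%, 35.9% and 54.8% of the summed FPKM in Zfp423 astrocytes 1, 2 and 3, above the 0.315%, 29.6% and 4.84% of the parental astrocytes.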

How the results depend on the processing

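The number of features called was 2 under median-ratio scaling, equal sums, with small RNA kept, without trend and with a minimum fold change. It was 0 with PT1 and PT4 averaged, 0 without a filter (18531 features tested), 1 with a pseudocount of 0.1 and 32 with all 10 libraries in 1 fit. It was 12 with the astrocyte batch as a replicate block. With PT4 left out, the number in the title is that same block, and the number called was 0. Leaving out 1 library gave 0 to 618, and the 618 came without Zfp423 astrocytes 3. The cause of these changes was not tested. At an unadjusted p below 0.05, the 1921 features became 1106, 1049 and 2253 without Zfp423 astrocytes 1, 2 and 3 and 1371, 2074, 1844 and 1215 without PT1, PT2, PT3 and PT4. The block brought 8 of 108 other genes checked past the threshold, against 12 of all 12230 features (0.0981%), and changed no direction. Of the genes checked, *Plvap*, *Kirrel3*, *Nedd9*, *Mpzl1* and *Gas7* were added after their values were seen, so the 8 reflects how the genes were chosen. Without Zfp423 astrocytes 3, further alternatives, chosen after seeing the data, gave 382 (also without PT4) to 736 (also without PT2) features, with 395 also without PT1. *Zfp423* was past the threshold without Zfp423 astrocytes 3 (log2 fold change −2.50, limma adjusted p = 0.0263), and its fold change ran from −4.15 to −2.50 over the libraries left out. Of the 108 genes, many of them named by small p, 63 newly passed without Zfp423 astrocytes 3, against 618 called of all 12230 features. Of the 108, 5 changed direction when 1 library was left out, none of them called either way. Over the libraries left out, *Robo1* ran from −0.34 (without Zfp423 astrocytes 3) to 1.07, *Aqp4* from −0.81 (−0.20 without PT4) to 1.20, *Gfap* from −0.36 to 3.41 and *Wwtr1* from −0.14 (without PT3; −0.05 without Zfp423 astrocytes 2) to 0.41, with the lowest *Aqp4* and *Gfap* without Zfp423 astrocytes 2. *Yap1* ran from −0.31 to 0.13 (without Zfp423 astrocytes 2), with 0.06 without PT2 and 0.01 without PT4. For Zfp423 against parental astrocytes, every alternative run gave 0 calls by limma, with 907 at an unadjusted p below 0.05 in the fit with the block, 684 without it and 254, 599 and 1882 without replicates 1, 2 and 3. The files give no depth, so the limit it sets could not be read. Differences as large as those of *Acta2* (−6.92) and *Col1a2* (−8.21) were also not called with all libraries.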
